A study of Mus musculus with 17 samples.

Results

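The levels of 7 islet transcription factors were described across all samples: *Hnf4a*, *Hnf4g*, *Rfx3*, *Rfx6*, *Insm1*, *St18* and *Myt1*. They were chosen by symbol as 7 of the 55357 genes in the deposited tables, and all 7 passed the filter on low counts that left 22784 genes. Their 46 annotated transcripts, of 142376 in all, were also taken singly, 5 of them from *Hnf4a*. The material was RNA of β cells sorted by flow cytometry from islets of male C57BL/6 mice after 3 days in 2.8 mM (low) or 16.7 mM (high) glucose. Control cells came from RIP-Cre mice with a Cre-dependent tdTomato reporter, which the labels name Tdtomato or WT, and Pcbp2βKO cells from RIPCre+;Pcbp2Fl/Fl;Tdtomato mice, so that Cre and reporter were present in both genotypes. The rat insulin promoter drives this Cre, and the sorted cells were those that had recombined the reporter. Neither the age of these mice nor what a replicate stands for (an animal or a pool) is given in the labels, so that p values measure the spread between these samples. There were 3 control samples in low glucose, 4 control samples in high glucose, and 5 Pcbp2βKO samples in each.

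HNF4A and its paralog HNF4G are nuclear receptors, and HNF4A governs metabolic genes of the liver, the gut and the β cell. *Hnf4a* is read from a proximal promoter, P1, used mainly in liver, and from a distant one, P2, used mainly in the islet. RFX3 and RFX6 bind the X-box, a motif common in promoters of genes for cilia. RFX3 is needed for islet cilia, and RFX6 acts downstream of NEUROG3 in the making of endocrine cells and later in the mature β cell. INSM1 is a zinc-finger repressor that recruits a histone demethylase complex, and ST18 and MYT1 are zinc-finger proteins of the MYT family that are expressed in endocrine progenitors and islet cells.

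Promoter sequences are shown for the 2 start regions of *Hnf4a*, from which transcripts were quantified separately, and for *Rfx6*, the factor with the highest level. Each holds 250 bases before and 50 bases after a RefSeq start site, is credited to RefSeq, and was placed on GRCm39 by an exact and single match to its chromosome. RefSeq entries were at hand for 4 of the 7 factors (7 entries), and not for *Hnf4g*, *Insm1* or *St18*. Capitals mark GTTGCC, a core of the X-box, on either strand (GGCAAC on the other one).

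Hnf4a P2, chr2:163348527-163348826, plus strand, with its start site 49 bases downstream of the first base of Hnf4a-205: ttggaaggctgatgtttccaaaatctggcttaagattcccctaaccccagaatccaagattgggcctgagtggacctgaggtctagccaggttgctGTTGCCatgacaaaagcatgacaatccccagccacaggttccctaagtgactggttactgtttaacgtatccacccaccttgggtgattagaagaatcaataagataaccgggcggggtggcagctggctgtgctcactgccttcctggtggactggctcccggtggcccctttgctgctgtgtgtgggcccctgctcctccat
Hnf4a P1, chr2:163388825-163389124, plus strand, with its start site 6 bases downstream of the first base of Hnf4a-201: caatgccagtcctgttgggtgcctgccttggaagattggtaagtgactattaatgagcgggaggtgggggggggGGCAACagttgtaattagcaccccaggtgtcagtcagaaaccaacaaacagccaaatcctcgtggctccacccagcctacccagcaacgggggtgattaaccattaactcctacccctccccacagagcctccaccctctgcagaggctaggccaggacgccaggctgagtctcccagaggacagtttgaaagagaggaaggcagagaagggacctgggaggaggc
Rfx6, chr10:51561364-51561663, plus strand, at the start of Rfx6-201: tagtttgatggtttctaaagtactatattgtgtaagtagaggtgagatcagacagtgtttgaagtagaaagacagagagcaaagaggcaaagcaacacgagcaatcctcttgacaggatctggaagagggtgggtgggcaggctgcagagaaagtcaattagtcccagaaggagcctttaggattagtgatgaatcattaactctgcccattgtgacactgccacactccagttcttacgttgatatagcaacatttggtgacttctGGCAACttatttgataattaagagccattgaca

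P2 and P1 of *Hnf4a*, the *Rfx6* window and the *Rfx3* entry each held GTTGCC 1 time, and the 3 *Myt1* entries did not hold it. Among all 32851 promoters of this length, 12.5% held GTTGCC, so that these matches describe the letters of the windows and no more.

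The estimated counts summed per library to between 47385513 and 82419400. *Pcbp2*, the deleted gene, stood at 50.67 to 73.43 CPM (counts divided by library size, with the TMM factors of edgeR) in control cells in low glucose and 35.0 to 45.39 CPM in high glucose. It stood at 15.53 to 19.18 CPM and 5.809 to 10.02 CPM in Pcbp2βKO cells, below every control sample. *Ins2* took 4.919 to 10.36% of all counts in low glucose and 18.2 to 25.67% in high glucose in either genotype, and the β cell markers were abundant in every group. Acinar, endothelial and stellate markers summed to at most 0.3919, 1.141 and 4.977 CPM in a sample, and ductal markers to 384.1 to 1183 CPM. *Ppy*, the marker of PP cells, averaged 818.8, 366.6, 2393 and 630.5 CPM in control low, control high, Pcbp2βKO low and Pcbp2βKO high glucose, and delta cell markers averaged 341.1, 235.2, 864.9 and 383.4 summed CPM. Macrophage markers averaged 11.65, 4.262, 14.32 and 1.979 and proliferation markers 4.431, 27.93, 6.672 and 129.7 summed CPM in this order. The part of these markers in the results was not tested. Alpha cell markers (5 genes) averaged 1741, 1190, 5219 and 1491 summed CPM in the same order of groups. Samples differed widely within some groups. In Pcbp2βKO cells in low glucose, alpha cell markers ranged from 1802 to 9617 summed CPM and *Ppy* from 991.6 to 5114 CPM. In high glucose, proliferation markers ranged from 7.348 to 58.38 summed CPM in control and from 2.112 to 258.3 in Pcbp2βKO cells. On the first principal component of log2 CPM, which held 32.5% of the variance, 3 of the 9 libraries in high glucose stood apart. Replicate 4 of the control cells scored 10.1 against 82.6 to 87.6 in the others of its group, and replicates 4 and 5 of the Pcbp2βKO cells scored 15.2 and 12.9 against 78.3 to 81.5. Fewer cells of a type and less RNA per cell cannot be told apart in such bulk samples.

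Levels of the 7 factors can be compared with each other in TPM, which is scaled to transcript length. *Rfx6* was the most abundant, with a mean of 63.35 TPM in control cells in low glucose and 18.88 TPM in high glucose, and of 87.13 and 24.52 TPM in Pcbp2βKO cells. *St18* came next, with means of 16.4, 17.28, 22.7 and 19.36 TPM in the same order of groups. The ranges of these 2 genes overlapped in high glucose and were apart in low glucose. Means of *Hnf4a*, *Myt1* and *Rfx3* lay between 4.783 and 8.605 TPM, and the ranges of *Hnf4a* and *Myt1* overlapped in every group. Short transcript models weigh much in these sums, namely Hnf4a-205 (431 nt, 46.86 to 48.32% of the *Hnf4a* TPM in the group means) and Myt1-212 (325 nt). The full-length *Hnf4a* models together stood at 2.642 to 5.233 TPM over the samples, beside 4.64 to 8.6 TPM for *Rfx3*. The order of *Hnf4a*, *Myt1* and *Rfx3* thus depends on these short models. *Insm1* (1.883 to 3.685 TPM) and *Hnf4g* (0.922 to 1.397 TPM) were lower, and the ranges of each were apart from those of its neighbors in all 4 groups. Over the 17 samples, 93.4% of the tested genes had a lower mean TPM than *Rfx6*, 85.0% than *St18*, 72.5% than *Myt1*, 72.1% than *Hnf4a*, 69.4% than *Rfx3*, 58.4% than *Insm1* and 49.6% than *Hnf4g*.

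The comparison of high with low glucose in control cells asked which of the factors moved with the glucose of the culture. *Hnf4a* and *St18* were called higher and *Rfx6* lower in high glucose, and the other 4 were not called. Calls required an adjusted p below 0.05 (edgeR's quasi-likelihood test, Benjamini-Hochberg over all genes tested) and a change of over 1.5-fold. By this rule 3 of the 7 factors were called, beside 13.8% of all genes tested, and 5 of the 7 were below an unadjusted p of 0.05. In Pcbp2βKO cells the same 3 factors were called in the same directions, beside 23.8% of all genes tested, and 4 were below an unadjusted p of 0.05. The share of all genes or transcripts below this unadjusted p was not taken, here or further on. Counts at that cut therefore have no background beside them, and the percentages given are for calls. In CPM, the low- and high-glucose samples did not overlap for 5 of the 7 factors in control cells (24.1% of all genes) and for 2 of them in Pcbp2βKO cells (21.6% of all genes).

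**Figure D1:**
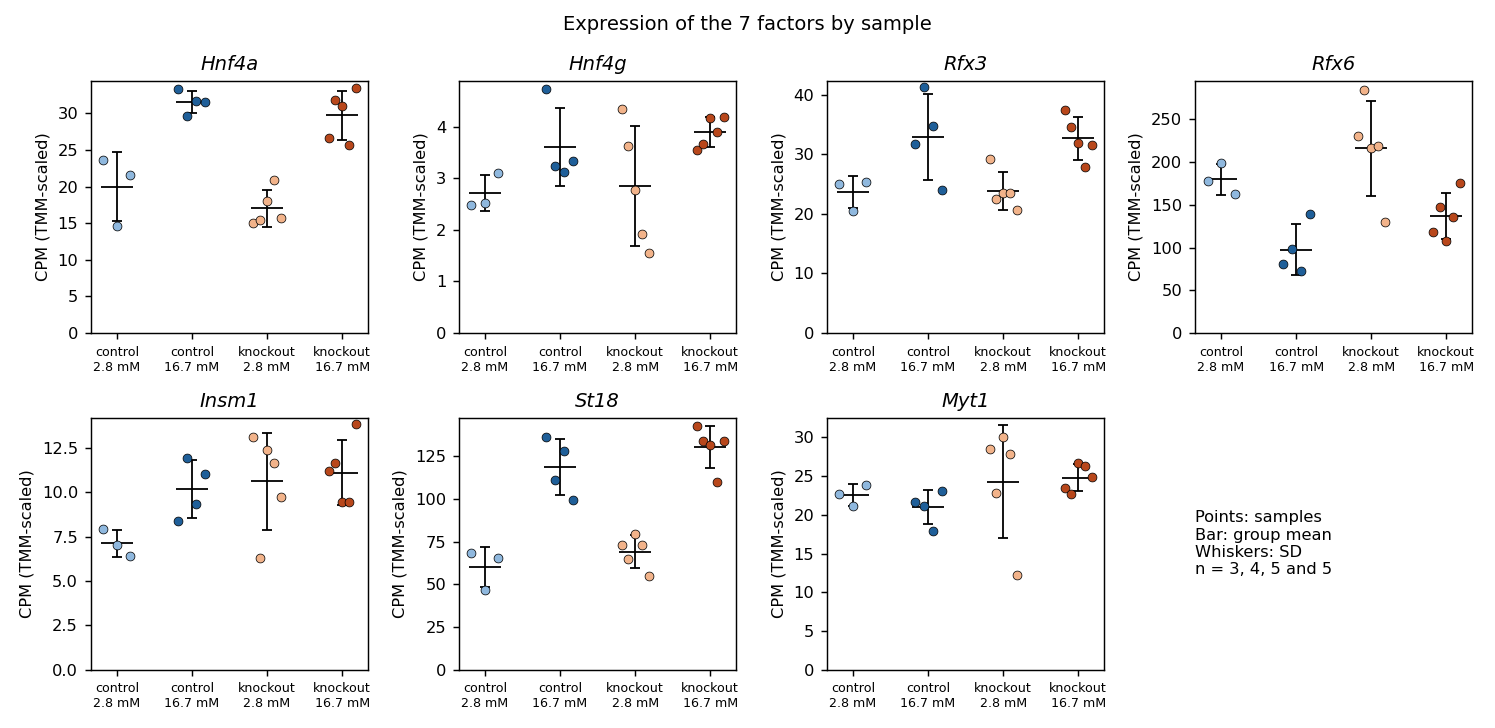
Level of each factor in TMM-scaled CPM (y axis, linear, from 0) in the 4 groups (x axis); points are samples, horizontal bars are group means and whiskers are SD (n = 3, 4, 5 and 5). *Hnf4a* and *St18* lay higher and *Rfx6* lower in high glucose in this unit, whereas on the TPM scale the differences of *Hnf4a* in both genotypes and of *St18* in Pcbp2βKO cells were below 0.

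*Rfx6* (chr10:51553852-51606528, plus strand) was expressed at 178.4, 198.8 and 162.1 CPM in the control samples in low glucose and at 80.24, 98.01, 72.98 and 139.1 CPM in those in high glucose. Every sample in high glucose lay below every sample in low glucose, and replicate 4, one of the libraries that stood apart, was the highest of its group. In Pcbp2βKO cells the values were 231.0, 284.0, 216.3, 218.5 and 129.7 CPM in low glucose and 118.6, 147.6, 107.3, 135.9 and 175.0 CPM in high glucose. These groups overlapped because replicate 5 in low glucose lay among the samples in high glucose. The group means were 179.8 ± 18.38 (SD, n = 3) and 97.57 ± 29.59 CPM (n = 4) in control cells, and 215.9 ± 55.45 and 136.9 ± 26.34 CPM (n = 5 each) in Pcbp2βKO cells. *Rfx6* fell by 0.88 on the log2 scale in control cells (SE 0.238, adjusted p = 0.0177 by edgeR) and by 0.66 in Pcbp2βKO cells (SE 0.199, adjusted p = 0.0177 by edgeR).

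The decrease of *Rfx6* was the only call among the 7 that held with every scaling tried. With total counts alone its log2 fold change was -1.23 in control and -1.12 in Pcbp2βKO cells, and on log2(TPM + 0.1) with limma it was -1.85 and -1.80, each called. In TPM it ranged from 58.63 to 71.12 and from 12.18 to 32.59 in control cells in low and high glucose, and from 45.55 to 119.0 and from 17.8 to 32.35 in Pcbp2βKO cells. The groups did not overlap in this unit in either genotype. The call in control cells did not hold when replicate 1 or 2 in low glucose or replicate 1 or 3 in high glucose was left out (adjusted p = 0.0515, 0.0818, 0.0528 and 0.0591 by edgeR). In Pcbp2βKO cells it did not hold without replicate 2 in low or replicate 3 in high glucose (adjusted p = 0.0559 and 0.053 by edgeR). Without the 3 libraries that stood apart the fold changes were -1.12 and -0.83 (adjusted p = 0.00157 and 0.00436 by edgeR).

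*Rfx6* is also expressed in alpha cells, and *Gcg*, the glucagon gene, was highest in some of the same libraries. In control cells in high glucose *Gcg* stood at 260.2, 352.6 and 288.5 CPM in replicates 1 to 3 and at 1448 CPM in replicate 4. In control cells in low glucose replicate 2, at 2543 CPM of *Gcg*, was the highest in both genes, and the others did not exceed 1368 CPM. In Pcbp2βKO cells in high glucose *Gcg* stood at 362.6, 424.7, 171.8, 955.5 and 1301 CPM, with replicate 3 the lowest and replicate 5 the highest in both genes. In Pcbp2βKO cells in low glucose it stood at 1452, 6473, 1951, 9159 and 5307 CPM, and neither the lowest nor the highest library was the same for both genes. The part of alpha cell RNA in the *Rfx6* levels was not tested.

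*St18* (chr1:6557455-6931164, plus strand) was expressed at 68.12, 46.73 and 65.40 CPM in control cells in low glucose and at 136.3, 110.9, 127.8 and 99.43 CPM in high glucose. In Pcbp2βKO cells it stood at 72.72, 64.79, 79.63, 73.16 and 54.68 CPM in low glucose and at 142.6, 133.8, 131.7, 109.8 and 134.0 CPM in high glucose. No sample in low glucose reached a sample in high glucose, in either genotype. With means of 60.08 ± 11.64 and 118.6 ± 16.57 CPM (SD, n = 3 and 4) and of 69.0 ± 9.575 and 130.4 ± 12.22 CPM (n = 5 each), the log2 fold change was 0.98 in control cells (SE 0.163, adjusted p = 0.00115 by edgeR) and 0.92 in Pcbp2βKO cells (SE 0.133, adjusted p = 7.06e-05 by edgeR). The calls of *St18* held with each replicate left out in turn, in both genotypes.

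*Hnf4a* (chr2:163348728-163414830, plus strand) was expressed at 23.61, 14.66 and 21.62 CPM in control cells in low glucose and at 33.37, 29.68, 31.63 and 31.56 CPM in high glucose. In Pcbp2βKO cells the values were 14.97, 15.41, 18.04, 20.94 and 15.71 CPM in low glucose and 26.66, 31.79, 31.02, 25.64 and 33.47 CPM in high glucose. As for *St18*, samples in low and high glucose did not overlap in CPM in either genotype. The log2 fold change was 0.66 in control cells (SE 0.167, adjusted p = 0.0123 by edgeR) and 0.80 in Pcbp2βKO cells (SE 0.137, adjusted p = 0.000283 by edgeR). In control cells the call was lost without replicate 2 in low glucose, the lowest of the 7 samples (log2 fold change 0.48, adjusted p = 0.0902 by edgeR), which left 1 of the 7 factors called.

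The increases of *St18* and *Hnf4a* are relative to the TMM scaling. This scaling put the median log2 fold change of all genes at 0.04 in control cells and 0.01 in Pcbp2βKO cells, whereas total counts put it at -0.35 and -0.47, and log2(TPM + 0.1) at -0.56 and -0.71. With total counts alone, *St18* kept a positive difference that was below the fold limit (0.58 and 0.43), and *Hnf4a* was not called (0.27, adjusted p = 0.346, and 0.33, adjusted p = 0.117, by edgeR). On log2(TPM + 0.1), *St18* differed by 0.09 in control and -0.19 in Pcbp2βKO cells and *Hnf4a* by -0.13 and -0.24, none called by limma. Taken against the median of all genes under the same scaling, *St18* stood at 0.94, 0.92 and 0.65 in control cells and at 0.91, 0.90 and 0.52 in Pcbp2βKO cells with TMM, total counts and TPM. *Hnf4a* stood at 0.62, 0.62 and 0.43 in control cells and at 0.79, 0.79 and 0.47 in Pcbp2βKO cells in the same way. On log2(TPM + 1) these distances from the median were smaller. They were 0.326 and 0.14 for *St18* and 0.121 and 0.109 for *Hnf4a* in control and Pcbp2βKO cells.

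**Figure D2:**
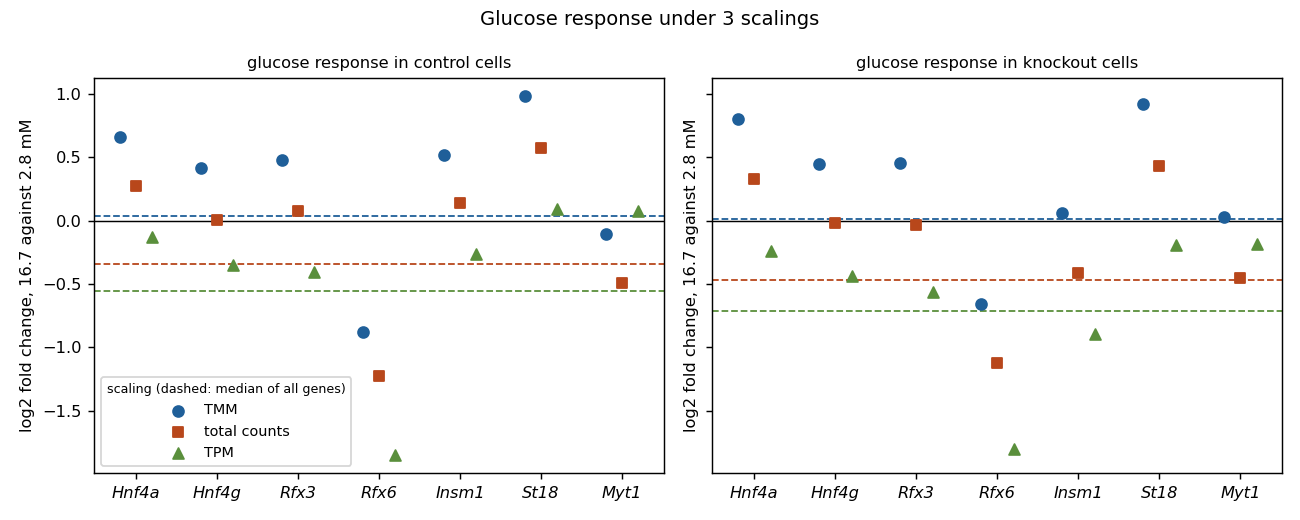
Log2 fold change of high against low glucose (y axis) for each factor (x axis) in control cells (left) and Pcbp2βKO cells (right); symbols stand for the scaling and dashed lines for the median of all genes under it. Only *Rfx6* lay below 0 with all 3 scalings in both genotypes among the 3 called factors, and *Hnf4a* and *St18* lay above the dashed line of their scaling throughout, while *Hnf4a* turned below 0 with TPM in both genotypes and *St18* in Pcbp2βKO cells.

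*Rfx3* (chr19:27739121-27988566, minus strand), from 20.50 to 25.32 CPM in control cells in low glucose and from 23.93 to 41.26 CPM in high glucose, was not called (log2 fold change 0.48, SE 0.171, adjusted p = 0.0639 by edgeR). Replicate 4 in high glucose, at 23.93 CPM, was the single sample within the low-glucose range, and without it *Rfx3* was called (0.62, adjusted p = 0.00868 by edgeR). When the control samples were fitted alone and paired by replicate number, *Rfx3* was also called (0.61, adjusted p = 0.00942 by edgeR). In Pcbp2βKO cells its log2 fold change of 0.45 passed the adjusted p (0.0205 by edgeR) but not the fold limit. In TPM its samples did not overlap in the opposite direction, with 5.781 to 7.039 TPM in low and 4.673 to 5.244 TPM in high glucose in control cells.

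*Insm1* (chr2:146063841-146066940, plus strand, a gene of 1 exon) stood at 7.927, 7.038 and 6.411 CPM in control cells in low glucose and at 8.384, 11.95, 9.340 and 11.07 CPM in high glucose. These groups did not overlap, and the log2 fold change of 0.52 was not called (adjusted p = 0.138 by edgeR). In Pcbp2βKO cells the value was 0.06 (adjusted p = 0.845 by edgeR), while on log2(TPM + 0.1) it was -0.89 and called by limma. *Hnf4g* (chr3:3573084-3724860, plus strand) ranged from 2.488 to 3.107 CPM in low and from 3.125 to 4.723 CPM in high glucose in control cells and was not called (0.41, adjusted p = 0.393 by edgeR), nor in Pcbp2βKO cells (0.45, adjusted p = 0.185 by edgeR). *Myt1* (chr2:181405125-181469590, plus strand) ranged from 17.94 to 23.92 CPM over all control samples, and its log2 fold changes of -0.11 in control and 0.03 in Pcbp2βKO cells were not called. When gene counts were rebuilt from TPM and transcript length, *Myt1* was called at 0.87 in control and 0.78 in Pcbp2βKO cells, which is taken up with its transcripts.

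The knockout was compared with control cells at each glucose concentration, to ask whether the factors depended on *Pcbp2*. None of the 7 was called at 16.7 mM, beside 1.71% of all genes tested, or at 2.8 mM, beside 2.04%. By edgeR 1 factor was below an unadjusted p of 0.05 in each of these comparisons. DESeq2 also called 0 factors, with 1 below an unadjusted p of 0.05 at 16.7 mM and 1 at 2.8 mM, and limma on log2(TPM + 0.1) called 0, with 0 and 2. In CPM the samples of control and Pcbp2βKO cells overlapped for all 7 factors at both concentrations, where 4.49% of all genes at 16.7 mM and 10.9% at 2.8 mM did not. These comparisons share their control or Pcbp2βKO samples with the glucose comparisons.

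At 16.7 mM the largest difference was that of *Rfx6*, with 97.57 ± 29.59 CPM in control and 136.9 ± 26.34 CPM in Pcbp2βKO cells (log2 fold change 0.49, SE 0.212, unadjusted p = 0.0335, adjusted p = 0.349 by edgeR). *Myt1* stood at 20.96 ± 2.189 and 24.82 ± 1.743 CPM, a log2 difference of 0.24, and the other 5 factors differed by at most 0.14 in either direction. At 2.8 mM *Insm1* differed most, with 7.126 ± 0.7619 CPM in control cells and 13.12, 6.300, 12.39, 11.69 and 9.718 CPM in the 5 Pcbp2βKO samples. One of these, replicate 2, lay below the lowest control sample and the other 4 above the highest, and the log2 fold change was 0.58 (SE 0.22, unadjusted p = 0.0169, adjusted p = 0.239 by edgeR). *Rfx6* differed by 0.26, *Hnf4a* by -0.23, *St18* by 0.20, *Myt1* by 0.11, *Hnf4g* by 0.07 and *Rfx3* by 0.02 on the log2 scale. In data simulated from these samples, edgeR called 72% of genes of at least 5 CPM changed 2-fold at 16.7 mM and 44.83% at 2.8 mM, so that a change of that size could have been missed.

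Whether the glucose response itself differed between the genotypes was tested as an interaction. No factor was called (0 of 7 by edgeR, with 0 below an unadjusted p of 0.05, and 0 called by DESeq2 or limma), beside 0.00439% of all genes, which is 1 gene. The largest interaction was that of *Insm1* at -0.45 (SE 0.294, adjusted p = 1 by edgeR), and that of *Rfx6* was 0.22.

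**Figure D3:**
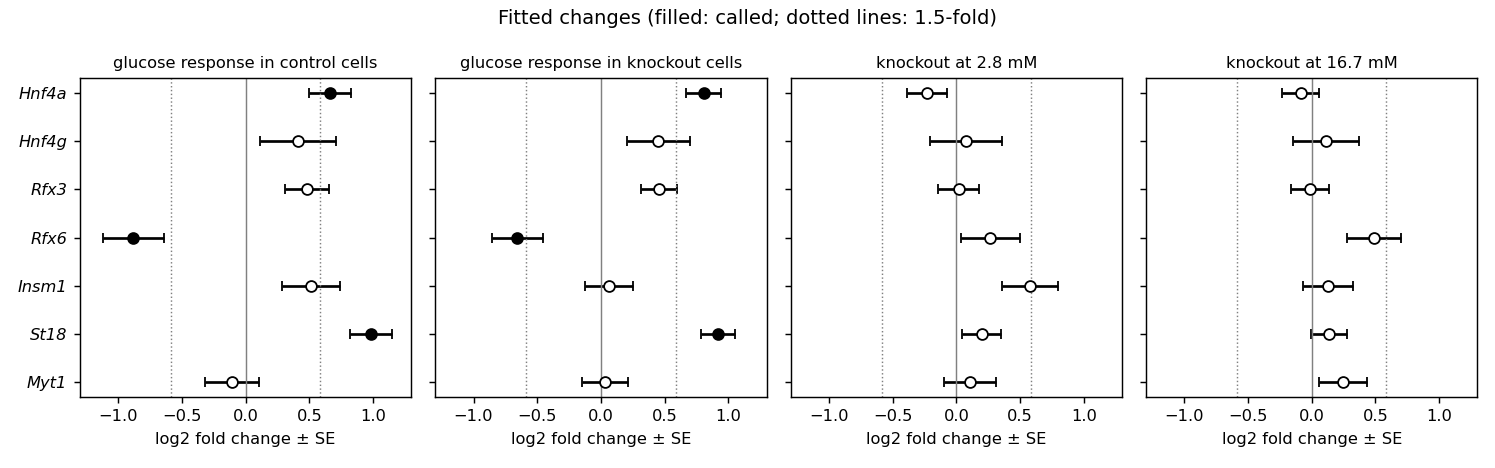
Fitted log2 fold change with its SE (x axis) for each factor (y axis) in the glucose response of control and Pcbp2βKO cells and in the knockout at 2.8 mM and 16.7 mM; filled points passed both thresholds and dotted lines mark a fold change of 1.5. *Hnf4a*, *Rfx6* and *St18* are filled in both glucose panels, under TMM scaling, and no point is filled for the knockout.

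*Hnf4a* transcripts were taken singly because its 2 promoters give different first exons. Hnf4a-205, a model of 431 nt in 3 exons, begins at P2, 40341 bases before Hnf4a-201. Hnf4a-201 and Hnf4a-202 begin at P1 and differ by 6 bases in deposited length, so that reads can hardly be told apart between them. A full-length transcript from P2 was not in the annotation used here, and reads from later exons could go only to the P1 models whatever promoter they came from. Hnf4a-203 and Hnf4a-204 were at 0 in all 17 samples.

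Hnf4a-205 had 72.66, 52.43 and 89.56 estimated counts in control cells in low glucose and 95.41, 70.95, 73.68 and 71.69 in high glucose. In Pcbp2βKO cells it had 62.6, 47.2, 76.52, 55.56 and 60.42 estimated counts in low and 51.14, 79.12, 101.15, 81.14 and 111.46 in high glucose. These counts are not scaled between samples, and their ranges overlapped between all groups. With TMM scaling its log2 fold change for glucose was 0.71 in control (unadjusted p = 0.0397, adjusted p = 0.229 by edgeR) and 0.78 in Pcbp2βKO cells (unadjusted p = 0.00857, adjusted p = 0.0553 by edgeR), beside 0.67 and 0.84 for Hnf4a-201, called in Pcbp2βKO cells alone. As a share of the *Hnf4a* TPM of a sample this short model held 48.1 ± 3.329%, 46.86 ± 4.59%, 48.32 ± 2.57% and 47.04 ± 2.966% in control low, control high, Pcbp2βKO low and Pcbp2βKO high glucose (SD, n = 3, 4, 5 and 5). The P1 models together held the rest, and Hnf4a-201 alone had 814.1 to 2204.7 estimated counts. Hnf4a-202 had 781.71 and 722.49 estimated counts in replicate 1 of the control cells in low and high glucose and 131.29 to 288.80 in the other 15 samples.

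The 3 transcripts were compared in their share over 4 contrasts with two-sided exact permutation tests, and 0 of these 12 had a Benjamini-Hochberg adjusted p below 0.05. The smallest p was that of Hnf4a-202 for the knockout at 16.7 mM, with mean shares of 11.02% in control and 5.933% in Pcbp2βKO cells (exact permutation test, p = 0.02381, adjusted p = 0.2857). The smallest p that the numbers of samples allow was 0.02857 for glucose in control cells, 0.01786 for the knockout at 2.8 mM and 0.007937 for the other contrasts. Shares of Hnf4a-205 differed by -1.24 percentage points between high and low glucose in control cells and by -1.28 in Pcbp2βKO cells (exact permutation tests, p = 0.6857 and p = 0.5159).

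**Figure D4:**
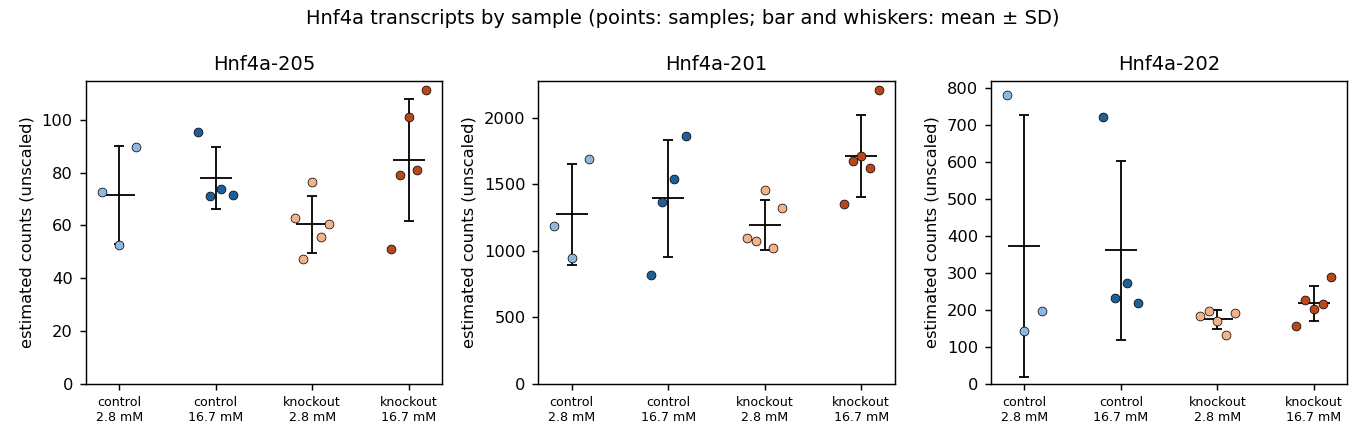
Estimated counts, not scaled between samples (y axis, linear, from 0), of the 3 detected *Hnf4a* transcripts in the 4 groups (x axis); points are samples and bars and whiskers are mean and SD. Replicate 1 of the control cells lies far above the others for Hnf4a-202 at both glucose concentrations, and Hnf4a-205 stays between 47.2 and 111.46 in all samples.

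Of the 46 transcripts of the 7 factors, 35 passed the filter and 4 were at 0 in every sample. In control cells 3 of them were called for glucose, beside 4.68% of the 65504 transcripts tested, with 14 below an unadjusted p of 0.05. In Pcbp2βKO cells 6 were called, beside 13.8% of the transcripts tested. For the knockout 0 were called at 16.7 mM (beside 0.392%) and 0 at 2.8 mM (beside 0.504%), with 7 and 4 below an unadjusted p of 0.05 by edgeR. For the interaction 0 were called (beside 0.00153%, with 1 below an unadjusted p of 0.05). Kallisto divides reads that fit several models by an estimate, and the error of that division is not in these tests.

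Rfx6-203, a model of 1896 nt classed as a retained intron, fell by 2.08 on the log2 scale in control cells (SE 0.331, adjusted p = 0.00347 by edgeR) and by 1.68 in Pcbp2βKO cells (SE 0.279, adjusted p = 0.000838 by edgeR). It had 3333.1, 5074.2 and 3034.1 estimated counts in control cells in low and 499.31, 661.6, 386.31 and 992.84 in high glucose. Of the *Rfx6* TPM it held 37.98 ± 8.302% in control low and 18.54 ± 2.331% in control high glucose, and 39.91 ± 6.042% and 21.58 ± 2.888% in Pcbp2βKO cells, with no overlap between low and high glucose in either genotype. Rfx6-202, which shares its start and encodes the protein, held 51.69% and 66.57% in control and 48.21% and 63.56% in Pcbp2βKO cells. Its log2 fold changes of -0.65 in control cells (adjusted p = 0.167 by edgeR) and -0.39 in Pcbp2βKO cells (adjusted p = 0.258 by edgeR) were not called. Rfx6-201, which begins at the window printed above, held 2.364 to 4.75% on average. The decrease of Rfx6-203 was called in control cells with total counts alone (-2.44), on log2(TPM + 0.1) (-2.84) and with each replicate left out in turn. These shares were chosen after the values had been seen and carry no test.

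St18-213, a protein-coding model that begins downstream of St18-201, differed by 1.75 in control cells (SE 0.278, adjusted p = 0.00347 by edgeR) and by 1.35 in Pcbp2βKO cells (SE 0.222, adjusted p = 0.000779 by edgeR). Its share of the *St18* TPM was 9.895 ± 1.815% and 18.31 ± 4.34% in control cells in low and high glucose and 8.255 ± 3.002% and 11.61 ± 3.255% in Pcbp2βKO cells. The control groups were apart, at 7.823 to 11.21% and 11.88 to 21.25%, and the Pcbp2βKO groups overlapped. In Pcbp2βKO cells St18-213 differed by 0.30 on log2(TPM + 0.1) and was not called there by limma (adjusted p = 0.36). St18-212, at 1.00, and St18-201, at 0.69, were also called in Pcbp2βKO cells, as was Hnf4a-201 at 0.84. These 3 were not called with total counts alone (0.50, 0.19 and 0.35) and stood at -0.03, -0.28 and -0.18 on log2(TPM + 0.1). The call of St18-201 was also lost without the filter and with any 1 of 5 of the 10 Pcbp2βKO replicates left out. Myt1-212, a model of 325 nt with 11 to 96 estimated counts, was called at 2.08 in control and 1.73 in Pcbp2βKO cells, but in control cells not with total counts alone, without the filter, or with any 1 of 5 replicates left out. In Pcbp2βKO cells it was called neither with total counts alone (1.22, adjusted p = 0.0594 by edgeR) nor on log2(TPM + 0.1) (0.83, adjusted p = 0.0802 by limma). Because it is short, it held 28.39% and 64.78% of the *Myt1* TPM in control cells in low and high glucose and 29.61% and 57.42% in Pcbp2βKO cells, while *Myt1* counts as a whole were not called.

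**Figure D5:**
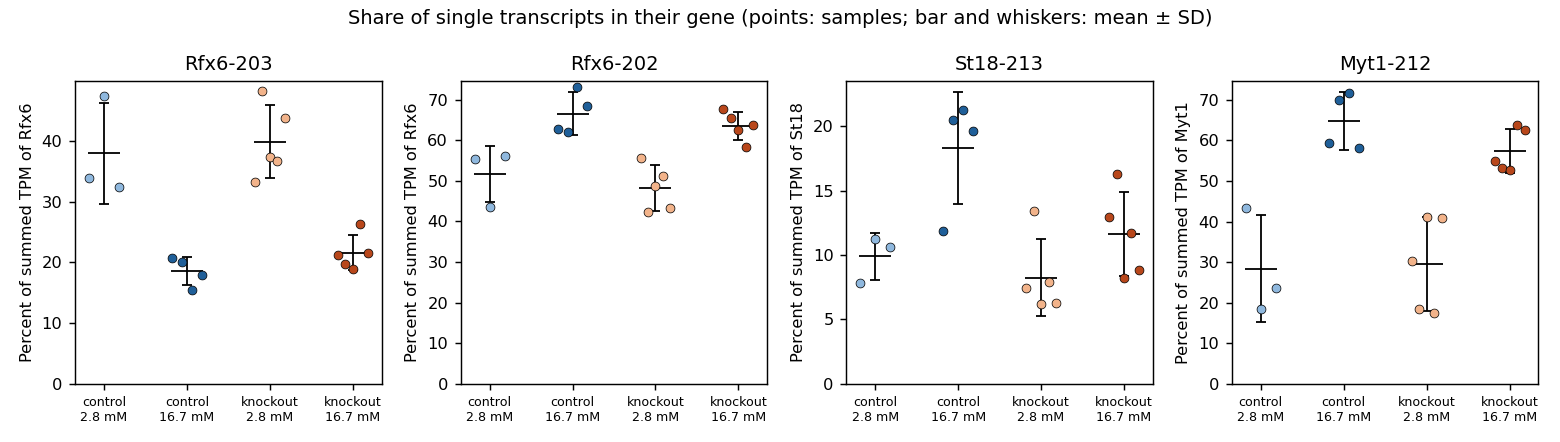
Percent of the summed TPM of its gene (y axis, linear, from 0) held by Rfx6-203, Rfx6-202, St18-213 and Myt1-212 in the 4 groups (x axis); points are samples and bars and whiskers are mean and SD. Rfx6-203 lies at 32.49 to 48.29% in low and 15.52 to 26.37% in high glucose over both genotypes, and Myt1-212 at 17.45 to 43.23% and 52.68 to 71.75%.

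Related genes were followed in fixed lists, which were drawn up with earlier results known and are not independent evidence. Their counts stand beside 13.8% of all genes tested called for glucose in control cells (1629 higher and 1524 lower) and 23.8% in Pcbp2βKO cells (3056 and 2375), and their medians beside those of all genes, 0.04 and 0.01. The split turns with the scaling, with 782 genes higher and 4055 lower in control and 1482 and 6369 in Pcbp2βKO cells with total counts alone, and 442 and 8460, then 656 and 11793, on log2(TPM + 0.1). Of 9 genes listed as targets of HNF4A or of factors that act with it, 6 rose and 0 fell in control cells (median 0.74) and 7 rose and 0 fell in Pcbp2βKO cells (median 1.36). *Cltrn*, which encodes collectrin, stood at 1.39 and 1.36, *Tm4sf4*, a membrane protein of the tetraspanin type, at 1.86 and 1.62, and *Ttr*, the transthyretin gene, at 3.32 and 2.38 in control and Pcbp2βKO cells. *Anks4b*, *Kif12* and *Vil1* stood at 0.71, 0.78 and 0.74 in control cells, and *Slc2a2*, the glucose transporter gene, at 0.72 without a call in control and 2.09 with one in Pcbp2βKO cells. With total counts alone, 2 and 7 of the 9 were called higher, and on log2(TPM + 0.1), 2 were called higher in control cells and 0 in Pcbp2βKO cells, where 1 was called lower. Of 14 further genes of factors and RNAs grouped with HNF4A, 10 were tested, and 0 rose and 1 fell in control cells (median -0.10), while 0 rose and 2 fell in Pcbp2βKO cells (median -0.37), among them *Foxa3* (-0.70), a forkhead factor.

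Of 7 tested genes of the RFX family and its partners, 3 rose in control cells (median 0.07) and 2 rose and 1 fell in Pcbp2βKO cells (median 0.23). *Rfx2* stood at 0.72, *Rfx4* at 3.55 and *Rfx5*, which controls major histocompatibility genes, at 0.61 in control cells. *Rfx4* and *Rfx5* were called at 3.70 and 0.73 and *Rfx1* at -0.73 in Pcbp2βKO cells. On log2(TPM + 0.1) 0 of them were called higher and 3 lower in control cells (*Rfx1*, *Rfxank* and *Rfxap*), and 0 higher and 5 lower in Pcbp2βKO cells. Of 9 tested genes described as targets of RFX3 or RFX6, 1 rose and 2 fell in each genotype. The 2 that fell in both were *Dync2li1* (-0.80 and -0.79) and *Ift172* (-0.85 and -0.78), genes of transport within cilia. The list's medians were -0.15 and 0.09, and the count of those called lower in control cells was 4 with the replicate block or without the 3 libraries that stood apart. Under total counts, 0 passed upwards and 4 downwards in either genotype, and on log2(TPM + 0.1) 0 and 7.

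Of 14 relatives and corepressors of INSM1 and the MYT family, 0 rose and 1 fell in control cells (median -0.17), namely *Rest*, a repressor of neuronal genes, at -2.72. With the replicate block 2 rose and 4 fell. In Pcbp2βKO cells 2 rose, *Hmg20b* (0.90) and *Gse1* (0.69), and 0 fell (median 0.07), and with total counts alone 0 rose and 5 fell in either genotype. On log2(TPM + 0.1) 0 were called higher, with 9 lower in control and 11 lower in Pcbp2βKO cells. Of 9 tested genes that are normally kept silent in β cells, 0 were called in control cells by edgeR (median 0.33), and in Pcbp2βKO cells *Ldha* (3.22) and *Oat* (1.89) rose and *Igfbp4* (-0.80) and *Mgst1* (-2.79) fell (median -0.82). With the replicate block 2 rose and 1 fell in control cells. In Pcbp2βKO cells 2 were called higher and 6 lower with total counts alone, and 0 and 6 on log2(TPM + 0.1). Of 11 other tested islet transcription factors, 4 rose and 0 fell in control cells (median 0.46) and 6 rose and 1 fell in Pcbp2βKO cells (median 0.68). *Mafa*, an activator of insulin genes, stood at 1.93 and 3.30, *Nkx6-1* at 1.00 and 0.93, *Nkx2-2* at 0.87 and 0.76, and *Neurod1* at 0.80 and 0.91 in control and Pcbp2βKO cells. *Pdx1* (1.12) and *Pax6* (0.68) rose in Pcbp2βKO cells. With total counts alone 0 of these 11 were called in control cells, and 2 were called higher and 3 lower in Pcbp2βKO cells. On log2(TPM + 0.1) 0 were called higher and 3 lower in control cells, and 1 higher and 5 lower in Pcbp2βKO cells. In control cells 4 rose and 2 fell with the replicate block, and 4 rose and 3 fell without the 3 libraries that stood apart.

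For the knockout, *Rfx2* was called higher at 2.8 mM (0.59, adjusted p = 0.0493 by edgeR), where 2.04% of all genes were called, but not with the replicate block or on log2(TPM + 0.1). *Mgst1* was called lower at 16.7 mM (-5.37, adjusted p = 0.000475 by edgeR), where 1.71% of all genes were called, and 0 other genes of these lists were called in the main fit. Of the other islet transcription factors, *Neurog3* was called higher at both concentrations without the 3 libraries that stood apart. On log2(TPM + 0.1), *Nkx2-2* was called higher at both concentrations by limma.

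The patterns most like those of the factors were taken from 10008 genes of at least 5 CPM on average, as Pearson correlations of log2 CPM over the 17 samples, which share the 4 groups and the libraries. *St18* was most like *Creb3l2* (r = 0.977), *Lmo7* (0.971) and *Lnx1* (0.97), and *Rfx6* most like *Dcdc2a* (0.968), *Oard1* (0.947) and *Smc6* (0.936). With the group means taken off, *Creb3l2* stood at 0.862 and *Dcdc2a* at 0.911. Each such gene was picked as the highest of 10008 in these same samples, so that both correlations are a description and carry no test. *Hnf4a* was most like *Acly* (0.959, and 0.81 within groups), *Rfx3* like *Cltrn* (0.942 and 0.864), *Myt1* like *A230057D06Rik* (0.908 and 0.9), *Insm1* like *Lpgat1* (0.887 and 0.865) and *Hnf4g* like *Dyrk1b* (0.846 and 0.791). Among the factors, *Hnf4a* and *St18* were most alike (0.885, and 0.654 within groups), followed by *Rfx3* and *St18* (0.847 and 0.611). *Hnf4a* and *Rfx6* ran in opposite directions over all samples (-0.704) but not within groups (-0.015).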

How the data were processed

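RNA was sequenced from 17 samples of sorted β cells with read pairs of 150 nt. By the study's methods, the reads were pseudoaligned by the authors with kallisto (version not given in the sources used here) to the GRCm39 transcriptome, and the authors deposited for each sample an estimated count per transcript, not normalized between samples, and TPM, scaled to effective length and to the same total in each sample. A batch factor entered the model of the authors, but its levels are not given in the sources used here, and no batch was fitted here.

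Estimated counts were summed per gene, or kept per transcript, rounded, filtered with filterByExpr and scaled by TMM (factors 0.752 to 1.29) in edgeR 4.0.16 (R 4.3.3). One quasi-likelihood fit of the 4 group means over all 17 samples gave 5 contrasts. Log2 CPM used a prior count of 2. DESeq2 1.42.0, limma 3.58.1 on log2(TPM + 0.1) and log2(TPM + 1), other scalings, filters, samples and a replicate block were alternatives. Shares of *Hnf4a* transcripts were compared with exact permutation tests. Depth ranged from 47385513 to 82419400 counts per sample, and the SD between replicates includes counting error. Named were the 7 factors, the genes of the lists that were called or needed for a role, and of the 3 genes with the highest correlation to each factor at least the first. The members and lists were chosen with earlier results of these data known. Some genes of the lists are not reported here.

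The test was checked on simulated data with 200 of 22784 genes changed 3-fold. For the glucose response in control cells edgeR called 40% of them, and 85.54% of those of at least 5 CPM, while 2.44% of its calls were false. With 200 of 65504 transcripts changed 3-fold in the same comparison, it called 6.5 to 13% in 3 draws. The check first failed a criterion set beforehand on the share of 3-fold changes called, which was 40 to 52% of genes over the contrasts simulated. After this result was seen, the criterion was replaced by one on fitted size, sign and false calls, which was passed. No changed gene had the wrong sign, and 4.75% of unchanged genes had an unadjusted p below 0.05 by edgeR for glucose in control cells.

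Replicate numbers were taken from the labels. Samples of the same number deviated together from their groups. Correlations were 0.123 to 0.258 over the 3 pairs of control samples in low and high glucose, each over 0.1. This pairing was not used in the main fit and entered only through the replicate block. The p values given above are unpaired unless the block or the pairing is named. In the other comparisons of groups at least 1 pair of the same number was below 0.1. The highest of all was 0.354, between replicate 4 of the control and of the Pcbp2βKO cells in high glucose, both among the libraries that stood apart. Pairs of the same number between these 2 groups ranged from 0.047 to 0.354. Between Pcbp2βKO samples in low and high glucose, the 5 pairs of the same number stood at 0.0664 to 0.193. Each of these was above every correlation between different numbers, of which the highest was 0.0445. No library repeated another (the lowest chi-square per gene between replicates was 38.33).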

Additional observations from a re-analysis of the deposited data

Results flagged for a closer look

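In 2 of 30 groups of 4 or more samples, a sample lay farther from the others than Dixon's critical value allows, where chance gives about 1 in 20. *Hnf4g* stood at 4.72 CPM in replicate 1 of the control cells in high glucose, against 3.12 to 3.33 CPM in the other 3 samples. Hnf4a-202 held 22.1% of the *Hnf4a* TPM in the same library, against 6.12 to 8.12% in the others.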

How the results depend on the processing

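The count of the 7 factors called for glucose in control cells was 3, and 1 with total counts alone, 1 on log2(TPM + 0.1), 1 on log2(TPM + 1) and 4 with counts rebuilt from TPM. It ranged from 1 (without replicate 2 in low glucose) to 4 (without replicate 4 in high glucose) with each replicate left out. For glucose in Pcbp2βKO cells it was 3, and 1 with total counts alone, 2 on log2(TPM + 0.1), where *Insm1* joined *Rfx6*, and 4 with counts rebuilt from TPM, where *Myt1* joined. Of the transcripts, 3 were called for glucose in control cells, 8 with limma on log2(TPM + 0.1), and 2 (without replicate 2 in low glucose) to 6 (without replicate 4 in high glucose) with each replicate left out. The counts for the knockout and for the interaction stayed at 0 under every alternative run. The *Hnf4a* shares could hardly pass an adjustment over 12 tests with the smallest p their samples allow, so that their count of 0 says nothing on stability. These changes follow the scaling or the samples by construction, and no further cause was tested.

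The replicate block was also fitted in all samples. It gave 3 factors called for glucose in control cells, and 4 in the control samples alone, an alternative chosen after seeing the data, in which *Rfx3* joined at 0.61. Elsewhere it turned 1 difference, *Rfx3* for the knockout at 16.7 mM (0.0272), and changed no other call of a factor.

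Signs turned among differences near 0 and with the scaling. With log2(TPM + 0.1) the values for glucose in control cells were *Hnf4a* -0.127, *Hnf4g* -0.35, *Rfx3* -0.405, *Insm1* -0.264 and *Myt1* 0.0772. In Pcbp2βKO cells they were *Hnf4a* -0.243, *Hnf4g* -0.438, *Rfx3* -0.566, *Insm1* -0.893, *St18* -0.191 and *Myt1* -0.185. For the interaction they were *Hnf4a* -0.116, *Hnf4g* -0.0882 and *Myt1* -0.262, and for the knockout at 16.7 mM *Myt1* -0.000257. With log2(TPM + 1) the same differences were -0.116, -0.197, -0.351, -0.175 and 0.0675, then -0.216, -0.273, -0.494, -0.673, -0.185 and -0.175, then -0.1, -0.0763 and -0.243, and -2.69e-05. With total counts alone they were, in Pcbp2βKO cells, *Hnf4g* -0.0191, *Rfx3* -0.0335, *Insm1* -0.416 and *Myt1* -0.449, for the interaction *Hnf4g* -0.0248, and for the knockout at 16.7 mM *Rfx3* 0.0249. With counts rebuilt from TPM they were *Myt1* 0.871 for glucose in control cells, *Rfx3* 0.0301 and -0.0154 for the knockout at 16.7 mM and 2.8 mM, and *Rfx3* 0.0455 and *Myt1* -0.0881 for the interaction. Without a filter *Rfx3* stood at 0.000166 for the knockout at 16.7 mM. Without the 3 libraries that stood apart, *Insm1* stood at -0.0213 and *Myt1* at -0.0393 for glucose in Pcbp2βKO cells and *Hnf4g* at -0.055 for the interaction.

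With each replicate left out, *Rfx3* ranged from -0.152 to 0.115 for the knockout at 16.7 mM, from -0.0757 to 0.0693 at 2.8 mM and from -0.171 to 0.0981 for the interaction. *Hnf4g* ranged from -0.131 to 0.228 for the knockout at 2.8 mM and from -0.117 to 0.241 for the interaction. *Insm1* ranged from -0.0775 to 0.149 and *Myt1* from -0.138 to 0.119 for glucose in Pcbp2βKO cells, and *Myt1* from -0.0308 to 0.227 and *St18* from -0.161 to 0.0913 for the interaction.

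Depth limits short transcripts, such as Myt1-212 (11 to 96 estimated counts), Hnf4a-205 (47.2 to 111.46) and St18-205 (1.34 to 20.5). In simulated data edgeR called 41.25% of genes of at least 5 CPM changed 2-fold for glucose in control cells. The TPM alternatives rest on effective lengths that the authors' tool estimated.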
